A study of Homo sapiens with 6 samples.

Results

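RMRP, the RNA subunit of RNase MRP, and the genes of 9 proteins of that enzyme were examined in MKN-74, an epithelial-like cell line established from a human gastric cancer (GC). The 10 genes were chosen by name, RMRP, POP1, POP4, POP5, POP7, RPP14, RPP25, RPP30, RPP38 and RPP40, and all 10 were found among the 12385 genes of the expression table. The study asked what the transcription factor HOXD9 changes in GC cells and sequenced total RNA of 3 LV-HOXD9 and 3 LV-Vector libraries. The LV-HOXD9 cells overexpressed HOXD9 from a lentivirus and the LV-Vector cells carried the same lentivirus without it. Both groups had therefore been infected and kept under puromycin (10 μg/ml, more than 14 days), and the vector also encoded a green fluorescent protein and the puromycin resistance. The Ubi promoter stands ahead of the insert in the name of the vector, and whether the stable lines were clones or pools is not given. Libraries are called biological replicates in the labels with no mention of separate infections or cultures, so p-values here measure only the spread between these libraries. Levels are FPKM, mapped fragments scaled to the length of the transcript and the size of the library, as the authors computed them.

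RNase MRP is a ribonucleoprotein of the nucleolus that cuts the ribosomal RNA precursor in the spacer ahead of the large-subunit RNAs. Its RNA is transcribed by RNA polymerase III from a promoter that lies upstream of the start, and it is not polyadenylated. Most of its proteins are shared with RNase P, the enzyme that trims the leader of transfer RNA precursors around an RNA of its own, RPPH1. POP1 is the large scaffold subunit, POP7 and RPP25 form a dimer of Alba-like proteins, POP5, RPP14, RPP30 and RPP40 lie together in the enzyme, and POP4 and RPP38 bind the RNA. Variants of the RMRP gene cause cartilage-hair hypoplasia.

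The RMRP sequence is shown because this RNA dominates the set. In the files RMRP lies at chr9:35657748-35658015 on the minus strand of GRCh37, as 1 exon of 268 bases with no coding sequence. GENCODE release 29, which uses GRCh38, places the same transcript at chr9:35657751-35658018. That release holds a second RMRP entry of the ribozyme type, 264 bases long and inside the first, which was not among the genes analysed here. The capitals below mark the first base and the last 3 bases of RMRP-201, the ends that the shorter entry lacks. The second sequence is 300 bases upstream of RMRP on its own strand, positions -323 to -24 from its start (chr9:35658042-35658341, GRCh38.p14, from the RefSeq window of CCDC107, the gene on the opposite strand). Its capitals mark the octamer ATTTGCAT at -216 to -209 and the TATA box TATAAA at -32 to -27. The third is the RefSeq promoter window of POP7, the protein gene that differed most between the groups (chr7:100705871-100706170, plus strand, GRCh38.p14). Its capitals mark GGGCGG, the core of the GC box, on either strand.
RMRP-201: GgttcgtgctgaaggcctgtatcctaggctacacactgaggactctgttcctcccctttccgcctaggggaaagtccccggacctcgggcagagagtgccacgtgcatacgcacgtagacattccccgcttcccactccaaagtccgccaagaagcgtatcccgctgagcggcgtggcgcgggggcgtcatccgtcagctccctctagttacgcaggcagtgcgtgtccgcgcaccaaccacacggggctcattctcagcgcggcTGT
Upstream of RMRP: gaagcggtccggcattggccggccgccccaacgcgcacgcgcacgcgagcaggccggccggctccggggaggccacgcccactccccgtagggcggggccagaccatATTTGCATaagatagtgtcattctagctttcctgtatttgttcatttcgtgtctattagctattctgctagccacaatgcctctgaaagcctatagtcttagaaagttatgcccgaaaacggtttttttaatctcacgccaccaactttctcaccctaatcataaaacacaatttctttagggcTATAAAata
POP7 promoter: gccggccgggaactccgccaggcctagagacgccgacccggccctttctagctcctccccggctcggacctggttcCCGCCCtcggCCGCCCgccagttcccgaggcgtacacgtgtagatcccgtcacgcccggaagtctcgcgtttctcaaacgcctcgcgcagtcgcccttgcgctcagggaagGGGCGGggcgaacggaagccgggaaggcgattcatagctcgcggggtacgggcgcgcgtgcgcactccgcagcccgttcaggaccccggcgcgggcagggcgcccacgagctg

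Both motifs marked upstream of RMRP are known elements of RNA polymerase III promoters of this type. Of 34943 distinct RefSeq promoter windows of 300 bases, 11.6% held TATAAA and 1.77% held ATTTGCAT on either strand. Windows were given for 8 of the 9 protein genes (POP4, POP5, POP7, RPP14, RPP25, RPP30, RPP38 and RPP40), and none of these 8 held either motif. GGGCGG was found 3 times in the POP7 window and is common, being present in 44.9% of all windows. It was found 2 times each for POP5, RPP14, RPP25 and RPP40, 1 time for RPP30, and 0 times for POP4 and RPP38. The sequence upstream of RMRP holds it as well, unmarked. The POP7 window had a GC content of 72.3%, against a median of 58.7% over all windows. The other protein gene windows ran from 52.7% (RPP30) to 70.7% (RPP25), with RPP14 and RPP38 at 68%. These matches describe letters and say nothing of a bound factor.

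HOXD9 RNA separated the groups as labelled. It was read at 26.6, 26.4 and 31.3 FPKM with the HOXD9 virus and at 0 to 0.0413 FPKM with the vector, with a log2 fold change of 4.82 on log2(FPKM + 1) (limma, adjusted p = 2.68e-06), and RNA of the insert and of the endogenous gene cannot be told apart. Of the epithelial markers EPCAM, CDH1, KRT8, KRT18 and KRT19, all 5 were measured, with a median level of 228 FPKM. CDH1 lay far below the others, its group means being 2.41 (LV-HOXD9) and 2.46 (LV-Vector) FPKM. Of 4 markers of leukocytes, fibroblasts and endothelium, COL1A1 was the single one measured, at 0.983 and 1.11 FPKM on average. LV-HOXD9 replicate 3 and LV-Vector replicate 2 stood farthest apart (Pearson's r = 0.973 across genes). In the first, genes of high GC content lay above their mean over the 6 libraries (Spearman's rho 0.659 across 12054 genes) and in the second below it (rho -0.601), whereas the rho of the others ran from -0.295 to 0.231. The depth of the libraries is unknown, since the tables hold no counts.

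RMRP was the second most abundant gene by FPKM, after the non-coding RNA AL139099.5, in both groups. It reached 16248, 16924 and 21242 FPKM with the HOXD9 virus, against 16678, 14721 and 15496 FPKM with the vector. The highest value was in LV-HOXD9 replicate 3 and the lowest in LV-Vector replicate 2, and the groups overlapped. The means were 18138 ± 2709 FPKM and 15632 ± 986 FPKM (SD, n = 3 libraries each). The log2 fold change was 0.21 (SE 0.11, 95% interval -0.056 to 0.47), which did not pass (limma, adjusted p = 0.337; exact permutation test, two-sided, p = 0.20). With 3 libraries against 3, that permutation test cannot go below 0.10.

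The value of RMRP leaned on the libraries that stood apart. Without LV-HOXD9 replicate 3 its log2 fold change was 0.087 (limma, adjusted p = 0.630), and without both that library and LV-Vector replicate 2 it was 0.045 (limma, adjusted p = 0.694). After removal of the trends with transcript length and GC content it was 0.18 (SE 0.065, limma, unadjusted p = 0.0325, adjusted p = 0.177). On that scale RMRP was at 14.03, 14.11 and 14.23 in the LV-HOXD9 and at 14.00, 13.91 and 13.92 in the LV-Vector libraries, in log2 units, and the groups no longer overlapped. Nor did they overlap on that scale for POP7, RPP30 and RPP40. The share of all genes without overlap was not computed there, and 348 of 12054 genes passed in that fit, against 25 of 12385 before. RMRP itself had a GC content of 63.1%.

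RMRP took 6.30%, 6.60% and 7.85% of the FPKM total in the LV-HOXD9 libraries. In the LV-Vector libraries it took 6.63%, 6.08% and 6.03%. The means were 6.92% ± 0.825 and 6.25% ± 0.333 (SD, n = 3), a difference of 0.670 percentage points that was within the spread of the LV-HOXD9 libraries (exact permutation test, two-sided, p = 0.30). The highest share was in LV-HOXD9 replicate 3, and the other LV-HOXD9 libraries lay within the range of the LV-Vector libraries. AL139099.5 took more of the total in both groups, 10.9%, 10.6% and 12.4% against 9.75%, 8.62% and 10.5% (exact permutation test, two-sided, p = 0.10). Because its locus covers RN7SL1, the RNA of the signal recognition particle, on the same strand in GENCODE release 29, its reads may belong to that gene. With AL139099.5 left out of the total, the share of RMRP was 7.81% ± 1.02 in LV-HOXD9 and 6.91% ± 0.377 in LV-Vector cells (SD, n = 3, exact permutation test, two-sided, p = 0.20).

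FPKM divides by transcript length and so weighs a short RNA heavily. Multiplied back by its 268 bases, RMRP stood for 4.35, 4.54 and 5.69 of every 1000 mapped fragments in LV-HOXD9 and for 4.47, 3.95 and 4.15 in LV-Vector cells (exact permutation test, two-sided, p = 0.20). On this scale of fragments it ranked 3 of 12468 genes, after AL139099.5 and the mitochondrial MT-CO1. Its rank therefore stayed near the top on both scales, whereas its share was far smaller in fragments than in FPKM. Reads could have been assigned to RMRPP5, a pseudogene at another locus, whose likeness to RMRP was not checked here. They could also have been assigned to the second RMRP entry, which annotates the same locus as the first. The level given for RMRP is uncertain to that extent. CCDC107 starts 271 bases away on the opposite strand and had 3.56 ± 0.261 and 3.57 ± 0.396 FPKM (SD, n = 3), a log2 fold change of -0.0024 (limma, adjusted p = 0.991).

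**Figure D1:**
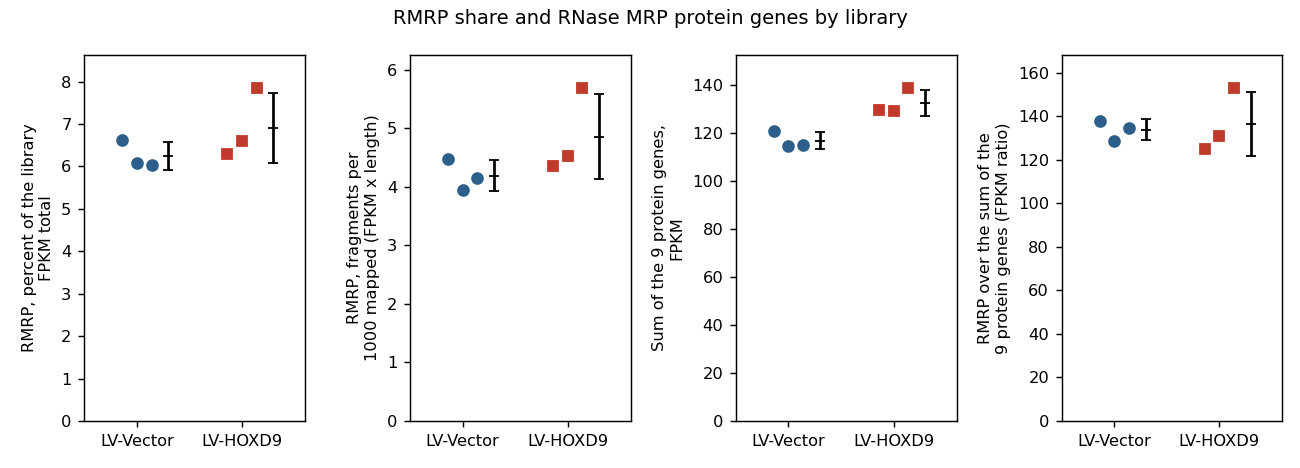
RMRP as a percent of the FPKM total, RMRP in fragments per 1000 mapped, the FPKM sum of the 9 protein genes, and the ratio of RMRP to that sum. Points are libraries (circles, LV-Vector; squares, LV-HOXD9), bars are mean ± SD (n = 3), and all axes start at 0. LV-HOXD9 replicate 3 is the highest point in each panel, and the groups are separate only for the sum of the protein genes.

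The 9 protein genes were far less abundant than the RNA. Their mean levels ran from 0.989 FPKM for RPP14 to 51.7 FPKM for POP7, and 6 of them lay between 5.02 and 8.20 FPKM. The mean FPKM of RMRP was 327 times that of POP7 and 17075 times that of RPP14. Summed over the 9 genes, the level was 129.9, 129.3 and 138.9 FPKM in LV-HOXD9 and 120.9, 114.5 and 115.1 FPKM in LV-Vector libraries, without overlap. Of the difference of 15.9 FPKM between the mean sums, POP7 gave 10.9 FPKM, RPP25 gave 2.78 FPKM and RPP38 gave 1.87 FPKM. The ratio of RMRP to this sum was 136 ± 14.7 in LV-HOXD9 and 134 ± 4.73 in LV-Vector cells (SD, n = 3), and the libraries of the groups were mixed.

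**Figure D2:**
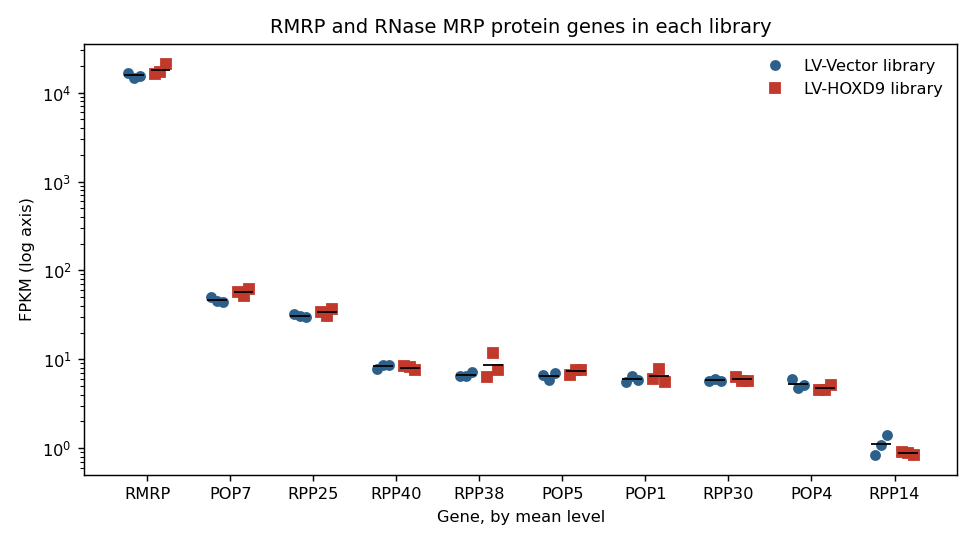
FPKM of RMRP and the 9 protein genes on a log axis, ordered by mean level. Circles are LV-Vector and squares are LV-HOXD9 libraries, and black lines are group means. RMRP sits at 14721 FPKM or more in all 6 libraries and the protein genes between 0.832 and 62.3 FPKM.

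Of the 10 genes, 0 passed limma at an adjusted p under 0.05, a threshold that 0.202% of all 12385 genes passed. At an unadjusted p under 0.05, 1 was higher in LV-HOXD9 cells (POP7), where 7.12% of all genes were higher, and 0 were lower, where 11.9% of all genes were lower. By an ordinary linear model at p under 0.05 with a fold change beyond 1.2, 1 was higher (POP7; 1.94% of all genes) and 0 were lower (4.60% of all genes). The groups did not overlap for 1 higher gene, again POP7 (10.9% of all genes), and for 0 lower genes (17.5% of all genes). These counts were near what the shares over all genes give for 10 genes. The median log2 fold change was 0.10 over the 10 genes and 0.083 over the 9 protein genes, against -0.044 over all genes, and 6 of the 9 had positive and 3 had negative values.

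**Figure D3:**
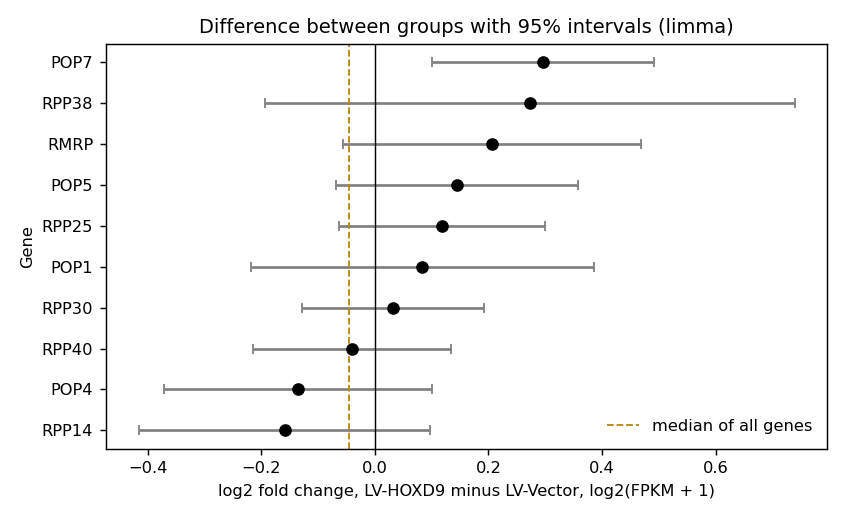
Log2 fold change between LV-HOXD9 and LV-Vector cells on log2(FPKM + 1), with 95% intervals from limma (n = 3 libraries each). The dashed line is the median of all genes, -0.044. POP7 is the one gene whose interval, 0.10 to 0.49, leaves out 0.

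POP7, one partner of the Alba-like dimer, lies at chr7:100303676-100305118 on the plus strand (GRCh37). It was read at 57.1, 52.0 and 62.3 FPKM in LV-HOXD9 and at 49.6, 45.0 and 44.2 FPKM in LV-Vector libraries. The lowest LV-HOXD9 library was thus above the highest LV-Vector library. Means were 57.1 ± 5.17 and 46.3 ± 2.92 FPKM (SD, n = 3), a log2 fold change of 0.30 (SE 0.082) that did not pass after adjustment (limma, p = 0.00894, adjusted p = 0.176; exact permutation test, two-sided, p = 0.10, the smallest it allows). Its direction held when each library was left out, with log2 fold changes of 0.23 to 0.36. Without both libraries that stood apart it was 0.21 and its unadjusted p no longer passed 0.05 (limma, adjusted p = 0.369). With the length and GC trends removed it was 0.24 (limma, adjusted p = 0.0657).

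RPP25, its partner in that dimer, lies at chr15:75246757-75249805 on the minus strand and was the second most abundant protein gene. It was at 33.6, 30.7 and 36.6 FPKM in LV-HOXD9 and at 32.3, 30.4 and 29.8 FPKM in LV-Vector libraries. The groups overlapped, and the log2 fold change of 0.12 did not pass (95% interval -0.064 to 0.30; limma, adjusted p = 0.412). Its locus meets that of SCAMP5 on the opposite strand. Both partners were highest in LV-HOXD9 replicate 3 and lowest in LV-Vector replicate 3.

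POP5, RPP14, RPP30 and RPP40, whose products lie together in the enzyme, had no common direction. POP5 (chr12:121016567-121019201, minus strand) was at 6.70, 7.60 and 7.58 FPKM in LV-HOXD9 and at 6.73, 5.79 and 7.01 FPKM in LV-Vector libraries, with a log2 fold change of 0.14 (95% interval -0.068 to 0.36; limma, adjusted p = 0.395). RPP14 (chr3:58291974-58310422, plus strand), which encodes a relative of POP5, was the least abundant, at 0.914, 0.875 and 0.832 FPKM against 0.834, 1.07 and 1.40 FPKM. Its LV-Vector libraries spread widely, and its log2 fold change was -0.16 (95% interval -0.42 to 0.098; limma, adjusted p = 0.435) and 0.0064 with the length and GC trends removed. RPP14 overlaps HTD2 on the same strand, so the reads of these genes may have been split between them.

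RPP30 (chr10:92631473-92668310, plus strand) was the steadiest member, with a highest library only 1.11 times its lowest. It was at 6.29, 5.73 and 5.76 FPKM in LV-HOXD9 and at 5.64, 5.93 and 5.73 FPKM in LV-Vector libraries. Its log2 fold change of 0.033 (95% interval -0.13 to 0.19; limma, adjusted p = 0.804) was negative when libraries were scaled to a common total (-0.023) or to TPM (-0.025). After removal of the length and GC trends that of RPP30 was 0.16. RPP40 (chr6:4994966-5004297, minus strand) was at 8.43, 8.23 and 7.57 FPKM against 7.76, 8.60 and 8.63 FPKM. The groups overlapped, and its log2 fold change of -0.040 (95% interval -0.21 to 0.13; limma, adjusted p = 0.778) was positive after quantile normalization (0.0035) and after removal of the length and GC trends (0.064).

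POP1, the scaffold subunit (chr8:99129525-99172062, plus strand), was at 5.999, 7.84 and 5.48 FPKM in LV-HOXD9 and at 5.51, 6.52 and 5.89 FPKM in LV-Vector libraries. Both groups were highest in replicate 2, and the log2 fold change was 0.083 (95% interval -0.22 to 0.39; limma, adjusted p = 0.732) and -0.048 without LV-HOXD9 replicate 2. POP4 (chr19:30094924-30108144, plus strand), an RNA-binding subunit, was at 4.54, 4.49 and 5.17 FPKM against 6.03, 4.71 and 5.19 FPKM. These groups overlapped too, with a log2 fold change of -0.13 (95% interval -0.37 to 0.10; limma, adjusted p = 0.467).

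RPP38 (chr10:15139179-15181817, plus strand), an RNA-binding protein of the L7Ae family, showed the largest spread between libraries among the 10 genes. It was at 6.34, 11.9 and 7.57 FPKM in LV-HOXD9 and at 6.48, 6.46 and 7.24 FPKM in LV-Vector libraries. One library, LV-HOXD9 replicate 2, lay far above the rest. The log2 fold change of 0.27 (SE 0.20, 95% interval -0.19 to 0.74; limma, adjusted p = 0.457) fell to 0.039 without that library (limma, adjusted p = 0.858). NMT2 overlaps RPP38 on the opposite strand and was at 6.13 FPKM in that library, within its range of 5.24 to 6.54 FPKM.

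The transcript table held 30 annotated transcripts of the 10 genes, from 1 for RMRP, POP7 and RPP25 to 6 for POP4. Of these, 0 passed at an adjusted p under 0.05 (limma, smallest adjusted p = 0.688), where 0.0992% of all 40304 transcripts passed. At an unadjusted p under 0.05, 1 was higher, POP7-201 (3.22% of all transcripts), and 1 was lower, POP4-211 (3.77% of all transcripts). The groups did not overlap for 2 higher transcripts (6.71% of all transcripts) and 1 lower (8.70% of all transcripts), counts near those shares. Gene and transcript levels were estimated separately and do not sum to each other. In the transcript table POP7-201 was at 60.5, 55.4 and 66.2 FPKM in LV-HOXD9 and at 52.7, 47.9 and 47.1 FPKM in LV-Vector libraries, the same order of libraries as for the gene. POP4-211, a processed transcript with no annotated protein, was at 0.639, 1.01 and 0.750 FPKM against 1.92, 1.06 and 1.69 FPKM, with a log2 fold change of -0.50 (limma, adjusted p = 0.688). It made up 9.48% of the POP4 transcript sum in LV-HOXD9 and 17.1% in LV-Vector cells on average.

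The third transcript without overlap was RPP30-202, at 6.58, 5.70 and 5.88 FPKM in LV-HOXD9 and at 5.21, 4.03 and 5.26 FPKM in LV-Vector libraries (log2 fold change 0.28; limma, adjusted p = 0.706). The high RPP38 value of LV-HOXD9 replicate 2 was found in a pair of its 5 transcripts. RPP38-205 was at 6.67 FPKM there and at 0.726 to 1.08 FPKM in the other libraries. RPP38-204 was at 8.37 FPKM there and at 2.14 to 5.75 FPKM elsewhere, whereas RPP38-201 was at 3.24 FPKM, within its range of 2.16 to 3.47 FPKM.

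Several protein genes were divided among transcripts differently from library to library within a group. POP1-201 was near 0 in replicate 2 of both groups (0.0044 and 0.0037 FPKM) and at 1.38 to 2.04 FPKM in the other 4 libraries, while POP1-202 carried the rest. RPP40-201 was at 2.96, 0.400 and 0.474 FPKM in LV-HOXD9 and at 3.13, 0.486 and 0 FPKM in LV-Vector libraries. RPP40-207 was listed at 0 in all libraries but LV-HOXD9 replicate 3, where it was at 1.76 FPKM. Transcripts listed at 0 in 1 library or more numbered 4 of the 30, and 10 had a mean under 1 FPKM.

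**Figure D4:**
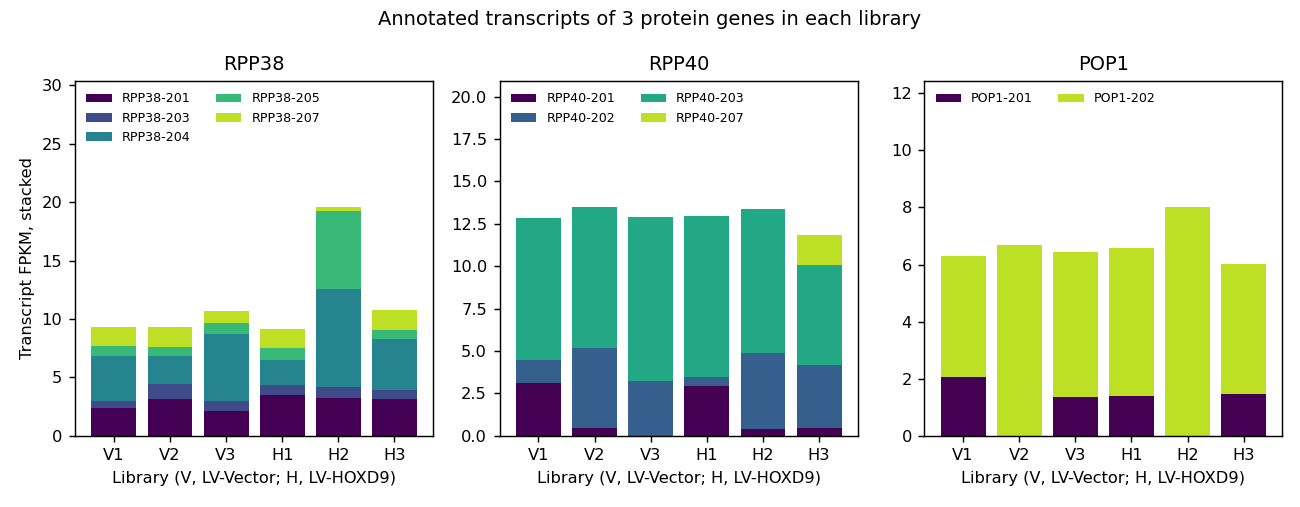
FPKM of the annotated transcripts of RPP38, RPP40 and POP1, stacked for each library (V, LV-Vector; H, LV-HOXD9; bars start at 0). The RPP38 stack of LV-HOXD9 replicate 2 reaches 19.6 FPKM, against 9.15 to 10.7 FPKM in the other 5 libraries, and POP1-201 is missing from both replicates 2.

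RMRP was ordered across the libraries much as their GC trend was, and POP7 and RPP25 only in part. RMRP, POP7 and RPP25, with GC contents of 63.1%, 60.6% and 62.8% in their leading transcripts, were each highest in LV-HOXD9 replicate 3, where GC-rich genes were high throughout. RPP40 and RPP14, at 41.6% and 43.4%, were each lowest in that library, as was POP1 at 46.6%, but not RPP30 at 41.5%. At the other end of the trend, LV-Vector replicate 2 had the lowest RMRP and POP5, the latter with a GC content of 50.4%, whereas POP7 and RPP25 were lowest in LV-Vector replicate 3. POP7 was also lower in LV-Vector replicate 1 (rho 0.231, 49.6 FPKM) than in LV-HOXD9 replicates 1 and 2 (rho -0.050 and -0.040, 57.1 and 52.0 FPKM). Across the 6 libraries, Pearson's r with RMRP on log2(FPKM + 1) was 0.862 for RPP25, 0.846 for POP7 and 0.719 for POP5, -0.853 for RPP40 and -0.577 for RPP14, and between -0.322 and 0.225 for the others. These correlations share the libraries and the GC trend, and the part of that trend in the differences between groups was not tested.

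**Figure D5:**
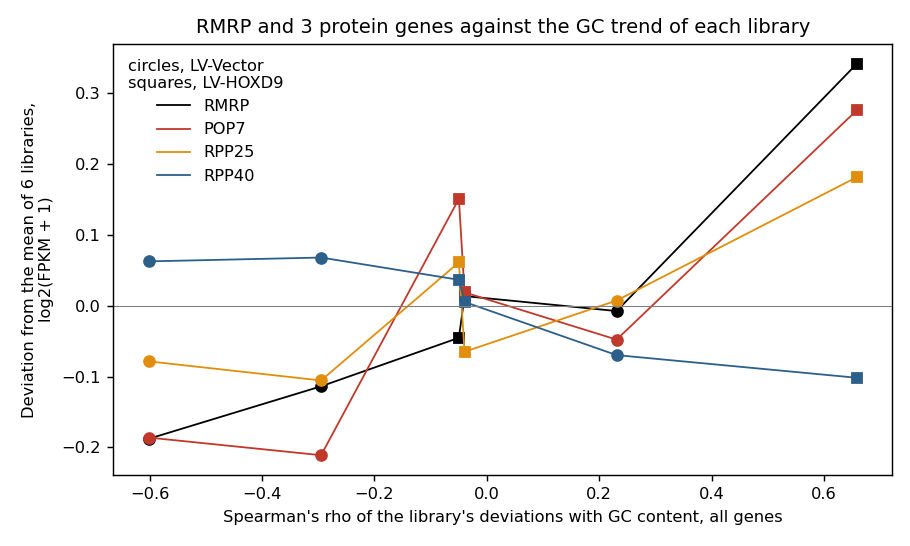
Deviation of RMRP, POP7, RPP25 and RPP40 from their mean over the 6 libraries, in log2(FPKM + 1), against the Spearman's rho between deviation and GC content over all genes in the same library. Circles are LV-Vector and squares are LV-HOXD9 libraries. At the right end, LV-HOXD9 replicate 3 (rho 0.659), RMRP is 0.34 above its mean and RPP40 0.10 below.

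Among 3934 genes with a mean of at least 10 FPKM, the pattern most like that of RMRP over the 6 libraries was found for EMC9 (r = 0.994), PCYT2 (r = 0.992), COX4I1 (r = 0.990), CSK (r = 0.990) and KDF1 (r = 0.987). EMC9, for example, was at 13.5, 13.9 and 16.6 FPKM in LV-HOXD9 and at 13.8, 12.9 and 13.2 FPKM in LV-Vector libraries. Like RMRP, it was highest in LV-HOXD9 replicate 3 and lowest in LV-Vector replicate 2. A likeness of r = 0.9 or more was common, being reached by 301 of these genes (7.65%).

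RNase P was represented beyond the shared subunits by RPP21, its own protein, which was at 12.5 ± 1.98 and 11.5 ± 1.27 FPKM (SD, n = 3), with a log2 fold change of 0.099 (limma, adjusted p = 0.684). RPP21 lies within the TRIM39-RPP21 readthrough locus, so its reads may be divided. The readthrough gene was at 2.04, 2.17 and 1.41 FPKM in LV-HOXD9 and at 1.24, 0 and 0 FPKM in LV-Vector libraries. Its groups did not overlap, and its log2 fold change of 1.12 did not pass (limma, adjusted p = 0.180). RPP25L, the paralog of RPP25, was at 15.4 ± 0.397 and 14.6 ± 1.43 FPKM, with a log2 fold change of 0.077 (limma, adjusted p = 0.604). The values of RPP21 and RPP25L were negative, -0.035 and -0.0028, without the pair of libraries that stood apart. RPPH1, the RNA of RNase P, was not among the genes of the expression table and has no value here.

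Of 11 measured factors that start or regulate transcription at promoters of the RMRP type, 0 passed limma at an adjusted p under 0.05. At an unadjusted p under 0.05, 0 were higher (7.12% of all genes) and 1 was lower (11.9% of all genes), a count near those shares. The lower one was SNAPC1 of the snRNA-activating complex, with a log2 fold change of -0.25 (limma, adjusted p = 0.258). BDP1 of the initiation factor TFIIIB had a log2 fold change of -0.28, and TBP, the TATA-binding protein, one of 0.12. Of 13 subunits of RNA polymerase III, 0 passed at an adjusted p under 0.05 and 1 was higher (7.12% of all genes) and 1 lower (11.9% of all genes) at an unadjusted p, again near those shares. POLR3K, a small subunit, was at 14.1, 13.0 and 13.0 FPKM in LV-HOXD9 and at 10.5, 9.78 and 9.65 FPKM in LV-Vector libraries, without overlap (log2 fold change 0.39, SE 0.065; limma, adjusted p = 0.0905). With the length and GC trends removed, POLR3K had a log2 fold change of 0.44 and passed (limma, adjusted p = 0.0319), as did 348 of 12054 genes, against 25 of 12385 before. POLR3GL, an alternative subunit, was the lower one (log2 fold change -0.30; limma, adjusted p = 0.208), and POLR3B, a catalytic subunit, had a log2 fold change of -0.15. The size of these lower values depended on the fit. Over the alternative fits, with the pair left out among them, SNAPC1 ran from -0.38 to -0.092 and BDP1 from -0.38 to -0.045. POLR3B ran from -0.23 to -0.031 and POLR3GL from -0.46 to -0.20.

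The steps in which RNase MRP and RNase P take part were described by their partners, and 0 genes of these lists passed limma at an adjusted p under 0.05. Of 33 factors that process the large-subunit ribosomal RNAs, 6 were higher (7.12% of all genes) and 1 was lower (11.9% of all genes) at an unadjusted p, with a median log2 fold change of 0.056 against -0.044 for all genes. BOP1, PES1 and NOP2, which act in the making of the large subunit, had log2 fold changes of 0.32, 0.28 and 0.24 (limma, adjusted p = 0.156, 0.171 and 0.173). BOP1 was at 14.9, 15.7 and 16.6 FPKM in LV-HOXD9 and at 13.2, 11.3 and 12.9 FPKM in LV-Vector libraries, and the groups did not overlap. For small nucleolar ribonucleoproteins, 13 proteins and assembly factors were measured. Of these, 4 were higher (7.12% of all genes) and 0 lower (11.9% of all genes) at an unadjusted p. The median log2 fold change of the 13 was 0.084. No test of a list as a whole was run.

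NHP2 of the H/ACA particles was at 56.8, 57.2 and 60.7 FPKM in LV-HOXD9 and at 49.8, 45.9 and 48.3 FPKM in LV-Vector libraries (log2 fold change 0.27; limma, adjusted p = 0.125). NOP56 and FBL of the C/D particles, the latter the RNA methyltransferase, had log2 fold changes of 0.22 and 0.18 (limma, adjusted p = 0.146 and 0.180). With the length and GC trends removed, NHP2 and NOP56 passed (limma, adjusted p = 0.0297 and 0.0430). In that fit 348 of 12054 genes passed, against 25 of 12385 before the removal. Of 7 enzymes and chaperones of transfer RNA ends, 2 were higher (7.12% of all genes) and 0 were lower (11.9% of all genes) at an unadjusted p. The higher ones were ELAC2, which trims the trailer, with a log2 fold change of 0.17, and HSD17B10 of the mitochondrial RNase P, with one of 0.18. ELAC1, a relative of ELAC2, had a log2 fold change of -0.21.

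RMRP RNA is also known as a partner of the telomerase protein TERT. TERT averaged 0.836 ± 0.0390 FPKM with the HOXD9 virus and 0.747 ± 0.142 FPKM with the vector (SD, n = 3), with a log2 fold change of 0.074 (limma, adjusted p = 0.634). TERC, the telomerase RNA, was at 367, 341 and 440 FPKM in LV-HOXD9 and at 378, 325 and 357 FPKM in LV-Vector libraries, highest and lowest in the same libraries as RMRP. The groups overlapped, and its log2 fold change of 0.11 (limma, adjusted p = 0.571) was -0.032 after quantile normalization. WRAP53, which guides that RNA to Cajal bodies, had a log2 fold change of 0.26 (limma, adjusted p = 0.265). Of the 3 telomerase genes measured, 0 passed at an adjusted p and 0 at an unadjusted p under 0.05.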

How the data were processed

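Total RNA of MKN-74 cells was sequenced on an Illumina HiSeq from a stranded KAPA kit. The submitters' processing notes name cutadapt, FastQC, HISAT2, StringTie and GRCh37; tool versions, ribosomal RNA depletion or poly(A) selection, and the use of strand in counting are not stated in the sources used here. Per the methods, the authors calculated the deposited FPKM with Ballgown, for 12385 genes and 40304 transcripts, and genes with a mean under 0.5 FPKM in both groups had been filtered out. Counts were not used here, so depth is unknown and no counting interval is given.

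The 10 genes, the other lists and the tests were chosen with earlier results of these data known. Log2(FPKM + 1) was compared with limma 3.58.1 (variance trend) in R 4.3.3 over each whole table, with Benjamini-Hochberg adjustment and a threshold of 0.05. Since 1 is added, fold changes of low genes are understated. No replicate block was used, as the methods state none. Single values were also compared by an exact permutation test over libraries, two-sided. FPKM times length, the sum of the protein genes and ratios were added after the data were seen. Named were all 10 genes and their transcripts, RPP21 and RPP25L, the 3 genes of each list with the smallest limma p and any that passed, HOXD9, the non-coding gene above RMRP, and the 5 genes most like RMRP. Other genes are named only because they overlap or neighbour one of these or, as MT-CO1, rank above RMRP, chosen after their values were seen. There were 9 alternatives to the limma fit (scaling to the mean total with or without RMRP and AL139099.5, TPM, quantile normalization, a pseudocount of 0.1, a minimum of 1 FPKM, a replicate block, an ordinary linear model, and loess removal of length and GC trends with span 0.5 over 12054 genes), and libraries were left out singly or as the pair that stood apart. Fits were tested on simulated data. Sequences came from GENCODE release 29 and RefSeq. Python 3.11.15, pandas 2.3.3 and matplotlib 3.10.9 were used.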

Additional observations from a re-analysis of the deposited data

How the results depend on the processing

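Across all alternatives, 0 of the 9 RNase MRP protein genes passed limma after adjustment, and at an unadjusted p under 0.05 the count ran from 0 to 2 higher and from 0 to 1 lower. Leaving out each library in turn gave log2 fold changes of 0.087 to 0.28 for RMRP, 0.23 to 0.36 for POP7, -0.048 to 0.18 for POP1, -0.0047 to 0.053 for RPP30, and -0.085 to 0.00068 for RPP40. Quantile normalization set RMRP to the same value in all libraries, by construction, because its rank did not change. Signs turned for RPP30 when scaled to the mean library total (-0.023) or to TPM (-0.025), for RPP40 (0.0035) and TERC (-0.032) after quantile normalization, and for RPP40 (0.064) and RPP14 (0.0064) with the length and GC trends removed. With LV-HOXD9 replicate 3 and LV-Vector replicate 2 left out, they turned for RPP40 (0.022), RPP25L (-0.0028), RPP21 (-0.035), TERC (-0.053) and TERT (-0.010). With the trends removed, 1 RNA polymerase III subunit and 2 proteins of small nucleolar ribonucleoproteins passed, where 0 had passed before, and the calls over all genes rose from 25 to 348. The causes of these moves were not tested. The scalings moved the median log2 fold change of all genes from -0.044 to between -0.113 (TPM) and 0.0018 (quantile normalization).

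Over all genes, same-numbered libraries showed little shared deviation (r of -0.173, 0.168 and -0.0064). The libraries at the ends of the GC trend had different numbers, LV-HOXD9 replicate 3 (rho 0.659) and LV-Vector replicate 2 (rho -0.601). Whether the numbers pair the libraries apart from that trend was not tested. With a replicate block, calls over all genes fell from 25 to 3, the adjusted p of RMRP was 0.326 and that of POP7 was 0.261 (limma), and no call for the 10 genes or the lists changed. With 3 libraries a group, unknown depth and 1 value per library, differences smaller than the intervals given could not be detected. The intervals are not adjusted for the number of genes, so larger differences could also fail to pass, as that of POP7 did.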
